A study of Mus musculus with 6 samples.

Results

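The Ly6 genes described here were Ly6a, Ly6c1, Ly6c2, Ly6e, Ly6g, Ly6i and Ly6h, taken by their Ensembl identifiers from a count matrix of 55401 mouse genes. All 7 were found, and all 7 passed the filter on low counts. RNA sequencing was performed on CD11b+ cells isolated with magnetic beads from the brains of untreated 6-week-old MRL/lpr and MRL/mpj mice, with 3 libraries per strain. MRL/lpr mice are lupus-prone and carry lpr, a mutation of Fas. MRL/mpj mice are the controls on the same background. The comparison asked how the transcripts of sorted microglia differ between lupus mice and controls. CD11b is present on microglia, monocytes, neutrophils and other macrophages, so the selection does not separate these cells. The study counts mice as its replicates, while the labels do not tie each library to an animal of its own, and the p-values measure the spread between these libraries.

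Ly6 proteins are small, disulphide-bonded proteins, most of which are held on the outer face of the cell membrane by a glycolipid anchor. In mice several of them serve as surface markers of blood cell types. Ly6a, known as Sca-1, marks haematopoietic stem cells and is also found on brain endothelium and activated lymphocytes. Ly6c2 is the Ly6C antigen of inflammatory monocytes, Ly6c1 is its close relative in endothelial and lymphoid cells, and Ly6g marks neutrophils. Ly6e and Ly6a are induced by interferon, Ly6i is found in monocytes and macrophages, and Ly6h is a neuronal member that acts on nicotinic acetylcholine receptors. A bulk measurement cannot tell apart a change in the number of cells of a type and a change in the RNA per cell.

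The members lie on chromosome 15 within 612.2 kb of GRCm38, the build named in the submitters' processing notes. In the order of the chromosome these are Ly6e (chr15:74955051-74959905, plus strand), Ly6i (chr15:74979534-74983430, minus strand), Ly6a (chr15:74994877-74998031, minus strand), Ly6c1 (chr15:75044018-75048830, minus strand), Ly6c2 (chr15:75108158-75111970, minus strand), Ly6g (chr15:75155240-75159126, plus strand) and Ly6h (chr15:75551268-75567255, minus strand). All are annotated as protein-coding in GENCODE M21.

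How alike the members are bears on how far reads can be given to 1 of them, and the coding sequences of the reference are shown for that reason. The stretch aligned to bases 61 to 150 of the Ly6a coding sequence, counted from the A of the start codon, is printed 5′ to 3′ on the coding strand, with capitals at the bases that differ from Ly6a. It spans an exon junction in each gene, and it was chosen by position alone.
Ly6a: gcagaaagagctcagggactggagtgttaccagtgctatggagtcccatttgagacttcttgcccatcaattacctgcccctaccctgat
Ly6i: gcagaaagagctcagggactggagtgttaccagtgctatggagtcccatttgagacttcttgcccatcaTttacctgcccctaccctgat
Ly6c1: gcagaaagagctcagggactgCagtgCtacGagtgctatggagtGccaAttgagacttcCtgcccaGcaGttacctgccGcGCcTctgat
Ly6c2: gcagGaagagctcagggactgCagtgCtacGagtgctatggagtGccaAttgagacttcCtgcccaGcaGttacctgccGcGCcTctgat
Ly6g: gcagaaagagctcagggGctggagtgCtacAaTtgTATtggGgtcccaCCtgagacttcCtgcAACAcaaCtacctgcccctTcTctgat
Ly6e: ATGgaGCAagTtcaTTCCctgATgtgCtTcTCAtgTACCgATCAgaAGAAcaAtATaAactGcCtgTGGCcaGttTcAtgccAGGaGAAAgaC

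Ly6i differed from Ly6a at 1 base of this stretch, Ly6c1 at 12, Ly6c2 at 13 and Ly6g at 18. Ly6e, whose stretch is 93 bases long, differed at 52 aligned positions with gaps counted. Over whole coding sequences, Ly6c1 and Ly6c2 were the most alike pair, with 384 of 393 aligned bases identical (97.7%) and a longest shared run of 188 bases. Ly6a and Ly6i shared 86.3% of their bases, with a longest run of 80. Identity of Ly6e with the other members was at most 48.7%, and that of Ly6h at most 47.3%. Of all stretches of 150 bases in the annotated transcripts, the read length of the study, 39 of 1706 from Ly6c1 (2.29%) were also present in Ly6c2. Ly6a, Ly6e, Ly6g, Ly6i and Ly6h shared no stretch of that length with another gene. Over 50 bases, 32.8% of the stretches of Ly6c1, 19.0% of those of Ly6a, 14.5% of those of Ly6c2 and 4.76% of those of Ly6i occurred in another gene, and 0 of Ly6e. Of the 50-base stretches of Ly6a, most of the shared ones occurred in Ly6c1, and 2.39% of all occurred in Ly6i. Of those of Ly6c1, 21.5% occurred in Ly6c2 and 11.1% in Ly6a. These shares describe the reference genome, and the MRL sequences of the genes were not analysed here. The split of reads between Ly6c1 and Ly6c2 is therefore the least certain, and their sum is given beside the single genes.

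Total counts were between 45481609 and 49846634 per library. Genes with 4 counts were several times more frequent than genes with 3 or 5 in each library, so 1 read pair may be worth 4 counts, and the low members rest on few reads. A list of 11 microglial markers had 17200 to 20200 summed CPM (counts scaled to library size and TMM) in MRL/lpr and 19400 to 20800 in MRL/mpj libraries. This was more than any other marker list, with 0 of the 11 higher and 2 lower. The 2 lower were Fcrls (log2 fold change of MRL/lpr over MRL/mpj -1.76) and Gpr34 (-0.48), while P2ry12 and Tmem119 did not pass. Csf1r was the largest part of the sums, with a mean of 10400 CPM in MRL/lpr and 9950 in MRL/mpj. Cx3cr1 was uneven, with 132706 counts in MRL/lpr replicate 2 and 10645 and 10334 in replicates 1 and 3. Counts of Fas, the gene mutated in lpr, were 461, 282 and 298 in MRL/lpr and 426, 432 and 362 in MRL/mpj, which does not check the allele. Xist, which is transcribed from the inactive X chromosome of female cells, had 8886 to 11319 counts in MRL/lpr and 27 to 38 in MRL/mpj, and the Y-linked Ddx3y had 3690 to 7559 in all libraries. The study's methods name female mice of both strains, which these counts do not match, and the reason was not tested. Sex make-up and strain cannot be told apart here. In MRL/lpr replicate 3, CT010467.1 held 6.38% of counts, against at most 0.458% elsewhere. Mitochondrial genes held 3.28%, 3.49% and 3.06% of counts in MRL/lpr and 5.84%, 5.97% and 6.38% in MRL/mpj. The reason for this strain difference was not tested.

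In sorted cells from MRL/lpr mice, 4 of the 7 members were higher than in MRL/mpj mice at an adjusted p under 0.05, namely Ly6i, Ly6a, Ly6e and Ly6c1, and 0 were lower (quasi-likelihood test of edgeR, adjusted by Benjamini-Hochberg over 19554 genes). Of all genes tested, 11.1% were higher and 9.06% lower by the same rule, 20.2% in either direction. Ly6i, Ly6a and Ly6e also passed a log2 fold change of 1, as did 4.67% of all genes in that direction and 3.66% in the other. The CPM of the strains did not overlap for 5 members, all higher in MRL/lpr, against 19.6% of all genes in that direction and 39.0% in either. The median log2 fold change was 1.08 over the members and -0.01 over all genes. Levels of different genes are compared below on the deposited FPKM (fragments scaled to transcript length and to sequencing depth), and differences between strains are log2 fold changes from the counts, as MRL/lpr over MRL/mpj.

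**Figure D1:**
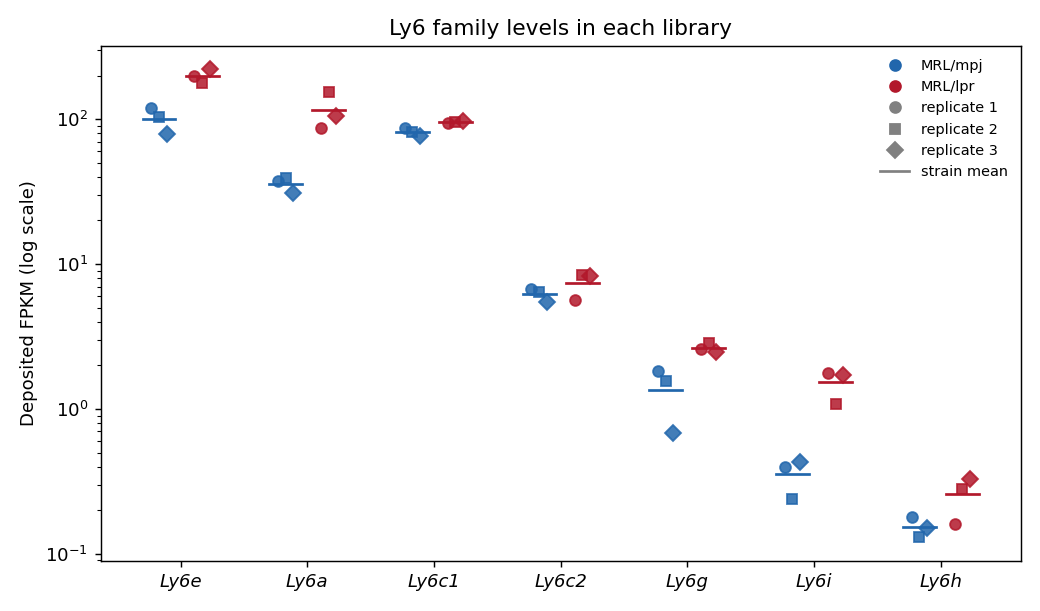
Deposited FPKM of the 7 Ly6 genes on a log axis, with 1 point per library, the replicate number as the symbol and a line at the mean of each strain (blue, MRL/mpj; red, MRL/lpr). Ly6e, Ly6a and Ly6c1 lie above 30 FPKM in each library, and the strains overlap for Ly6c2 and Ly6h.

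Levels ran over 3 orders of magnitude. In MRL/lpr libraries Ly6e was the most abundant member, followed by Ly6a and Ly6c1, whose ranges overlapped, and then by Ly6c2, Ly6g, Ly6i and Ly6h, each below the lowest library of the member before it. In MRL/mpj libraries Ly6e and Ly6c1 overlapped at the top, Ly6a came after them, and the order of the other 4 was as in MRL/lpr. Ly6a thus stood below Ly6c1 in each MRL/mpj library but not in MRL/lpr, where it was above Ly6c1 in replicates 2 and 3 and below it in replicate 1. The FPKM of the 7 members added up to 388, 440 and 436 in MRL/lpr and to 253, 233 and 193 in MRL/mpj (422 ± 29.1 against 226 ± 30.4, SD, n = 3). The strains did not overlap, and the exact permutation test gave p = 0.1 (two-sided), the smallest value that 3 against 3 libraries can give.

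The make-up of this pool also differed. Ly6a took 22.3%, 34.8% and 24.1% of the summed FPKM in MRL/lpr libraries and 14.8%, 16.9% and 15.9% in MRL/mpj libraries. Ly6c1 took 24.2%, 21.6% and 22.3% in MRL/lpr and 34.3%, 35.3% and 39.6% in MRL/mpj. Neither share overlapped between the strains (exact permutation p = 0.1 for each, n = 3). The share of Ly6e did overlap, at 50.9%, 40.7% and 50.6% against 47.3%, 44.2% and 41.0% (exact permutation p = 0.5). Ly6c2 held 1.46% to 1.92% in MRL/lpr and 2.64% to 2.83% in MRL/mpj, and Ly6g, Ly6i and Ly6h were the smallest parts. Shares of a sum are tied to each other, so a lower share of Ly6c1 is not a lower level of Ly6c1. Ly6a and Ly6c1 also share stretches of 50 bases, and how reads matching both were counted is not given in the sources used here.

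**Figure D2:**
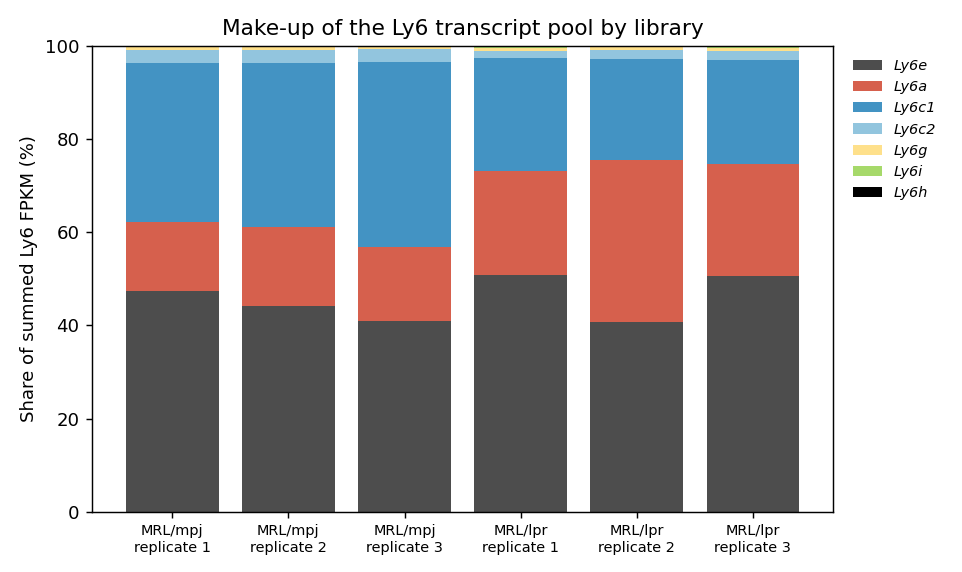
Share of each Ly6 gene in the summed FPKM of the 7 genes, in percent, as 1 stacked bar per library (left, MRL/mpj; right, MRL/lpr). The red part, Ly6a, is 14.8% to 16.9% in MRL/mpj and 22.3% to 34.8% in MRL/lpr, while the blue part, Ly6c1, is 34.3% to 39.6% and 21.6% to 24.2%.

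Of the members linked to interferon, Ly6e was the most abundant. Its FPKM was 197.64, 179.05 and 221.06 in MRL/lpr replicates 1 to 3 and 119.82, 102.86 and 79.28 in MRL/mpj replicates 1 to 3. The lowest MRL/lpr library was well above the highest MRL/mpj library. The log2 fold change was 1.11 (SE 0.17, adjusted p = 0.00364, edgeR), a 2.16-fold difference. Without MRL/lpr replicate 3 the log2 fold change was 1.0 and the adjusted p rose to 0.0511. With library size as the only scaling it was 0.98, and without MRL/mpj replicate 3 it was 0.96. Both passed the test but fell under a log2 fold change of 1. Ly6e restricts the entry of several viruses and is among the genes that interferon induces in most cell types.

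Ly6a had an FPKM of 86.53, 153.44 and 105.12 in MRL/lpr and 37.38, 39.43 and 30.83 in MRL/mpj. The strains were clearly apart, but the MRL/lpr libraries varied widely among themselves (115 ± 34.5 against 35.9 ± 4.49, SD, n = 3), with replicate 2 far above replicates 1 and 3. The log2 fold change was 1.80 (SE 0.22, 95% interval 1.28 to 2.32, adjusted p = 0.00165, edgeR), a 3.48-fold difference. Without MRL/lpr replicate 2 it was still past the test, at 1.55. The library with the most Ly6a was the one with the least Ly6e and Ly6i of the MRL/lpr libraries. Accordingly, Ly6a was 43.8%, 85.7% and 47.6% of Ly6e in MRL/lpr and 31.2%, 38.3% and 38.9% in MRL/mpj, without overlap (exact permutation p = 0.1).

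Ly6i had the largest fold change of the family and one of its lowest levels. Counts were 112, 70 and 102 in MRL/lpr and 26, 16 and 28 in MRL/mpj, which corresponded to an FPKM of 1.78, 1.09 and 1.71 against 0.40, 0.24 and 0.43. Every MRL/lpr library was above every MRL/mpj library, with a log2 fold change of 2.20 (SE 0.40, 95% interval 1.31 to 3.09, adjusted p = 0.00374, edgeR), or 4.6-fold. At 4 counts per read pair, the lowest library would hold only 4 pairs of Ly6i, and the interval is correspondingly wide. Ly6i was 2.06%, 0.71% and 1.63% of Ly6a in MRL/lpr and 1.07%, 0.609% and 1.39% in MRL/mpj. These ratios overlapped (exact permutation p = 0.5), so a larger change of Ly6i than of Ly6a was not detectable with 3 libraries. Ly6a and Ly6i share long runs of sequence, as shown above, though Ly6a shared more of its 50-base stretches with Ly6c1. How the authors' counting treated reads that match more than 1 member is not given in the sources used here.

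The 3 members with the largest changes can be read beside the wider response. Of 30 type I interferon response genes, 29 were higher and 0 lower, with a median log2 fold change of 1.81 against -0.01 over all genes. Ifi44 (5.20) and Ifit3b (3.35) had the largest changes that passed, and Ifih1 (0.54), a sensor of double-stranded RNA, and Irf9 (0.64), a subunit of the interferon-activated factor ISGF3, the smallest. The changes of Ly6a, Ly6e and Ly6i lay within that range. So did those of Ly6g (1.08) and Ly6h (0.85), which did not pass, so this wide range does not set the 3 members apart. The list was chosen with earlier results of these data known, and whether the same cells carried both was not tested.

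Ly6c1 differed little between the strains although it was one of the most abundant members. Its FPKM was 93.84, 95.29 and 97.51 in MRL/lpr and 86.91, 82.22 and 76.55 in MRL/mpj. The 3 MRL/lpr libraries were nearly equal and all above MRL/mpj. The log2 fold change was 0.34 (SE 0.07, 95% interval 0.18 to 0.51, adjusted p = 0.00916, edgeR), or 1.27-fold. This small difference depended on the scaling of the libraries. With library size alone it was 0.22 (adjusted p = 0.0529, edgeR), and on the FPKM it was also 0.22 (adjusted p = 0.0547, limma).

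Ly6c2, the monocyte antigen, was far lower than Ly6c1, with an FPKM of 5.65, 8.44 and 8.28 in MRL/lpr and 6.69, 6.42 and 5.48 in MRL/mpj. MRL/lpr replicate 1 lay among the MRL/mpj libraries. The log2 fold change of 0.39 (SE 0.17, 95% interval 0.01 to 0.77) did not pass after adjustment (adjusted p = 0.146, edgeR). Without MRL/lpr replicate 1 it was 0.57 and passed, with an adjusted p of 0.0182. With the counts of both genes added, which removes the effect of how reads were split between them, the log2 fold change was 0.35 (SE 0.08, adjusted p = 0.0108). Ly6c2 was 6.02%, 8.86% and 8.49% of Ly6c1 in MRL/lpr and 7.70%, 7.81% and 7.16% in MRL/mpj, and the difference in the log2 ratio was 0.02 (exact permutation p = 1.0).

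Markers of monocytes and endothelium were set beside these 2 genes. Of 12 monocyte markers 6 were higher and 1 lower, with a median log2 fold change of 0.82. Their summed level was 637 to 724 CPM in MRL/lpr and 596 to 626 in MRL/mpj. Fn1 held most of it, with means of 531 and 497 CPM, and did not pass (log2 fold change 0.09, adjusted p = 0.401, edgeR). Ms4a4c (log2 fold change 3.05) and Plac8 (2.22) were higher, Chil3 (-1.59) was lower, and Ccr2, the chemokine receptor of inflammatory monocytes, had a log2 fold change of -0.26 (adjusted p = 0.349, edgeR). Of 11 endothelial markers 2 were higher and 1 lower, and the sum was 3170 to 3620 CPM against 2960 to 3030. Slc2a1, the glucose transporter of brain vessels, was higher at 0.43 and Flt1, a VEGF receptor, at 0.36. The tight junction gene Cldn5 had a log2 fold change of -0.04 and Itm2a was lower at -0.88. No endothelial or monocyte marker was at 3 counts or fewer in all libraries. Endothelial cells lack CD11b, and selection with CD11b beads is meant to remove them. Their markers were nevertheless present in all libraries, and of the marker lists only the microglial one had larger sums. Cldn5 had means of 240 CPM in MRL/lpr and 246 in MRL/mpj. The part of these cells in the levels of Ly6c1, Ly6c2 and Ly6a was not tested.

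T cells, most of which lack CD11b and should be removed by the beads, can also carry Ly6a and Ly6c proteins. Of 12 T cell markers 9 were higher and 1 lower, with a median log2 fold change of 2.20. Cd3e, a chain of the T cell receptor complex, had 103, 92 and 120 counts in MRL/lpr and 2, 0 and 9 in MRL/mpj, and Cd8b1 had 70, 77 and 28 against 0 in each. The summed level of the list was 91.7 to 103 CPM in MRL/lpr and 95.2 to 98.5 in MRL/mpj, and Il7r, an interleukin receptor that was lower (-0.41), held most of it. Of 11 B and plasma cell markers tested, 2 were higher and 0 lower. Jchain had 647, 765 and 696 counts in MRL/lpr and 74, 72 and 42 in MRL/mpj (log2 fold change 3.66). Mzb1 had 25, 54 and 48 against 0 in each. The sums over all 12 listed were 186 to 206 and 153 to 165 CPM. Xbp1, which did not pass, was the largest part, with means of 104 and 89.7 CPM. Of 10 markers of border macrophages 1 was higher (Siglec1, a sialic acid receptor, 3.14) and 2 were lower (among them Cbr2, -1.68), with sums of 64.1 to 66.9 and 58.7 to 66.9 CPM. The part of these cells in the Ly6 levels was not tested.

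Ly6g, the neutrophil marker, was low in all libraries. It had 133, 146 and 119 counts in MRL/lpr and 96, 80 and 36 in MRL/mpj, or an FPKM of 2.60, 2.85 and 2.48 against 1.82, 1.56 and 0.68. The strains did not overlap, and MRL/mpj replicate 3 stood well below its group. The log2 fold change of 1.08 (SE 0.37, 95% interval 0.24 to 1.91) did not pass after adjustment (adjusted p = 0.0734, edgeR). It was 0.75 without MRL/mpj replicate 3, and with the counts divided by 4 the adjusted p was 0.0497. Of 12 neutrophil markers 4 were higher and 0 lower, none by a log2 fold change of 1. Their sums were 1520 to 1700 CPM in MRL/lpr and 1480 to 1510 in MRL/mpj. Csf3r was the largest part of the sums, with means of 783 and 867 CPM, and did not pass (log2 fold change -0.15, adjusted p = 0.101, edgeR). The markers that passed ranged from S100a8 (0.36), a subunit of calprotectin, and the granule gene Ngp (0.40) to Mmp9 (0.68), a gelatinase.

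Ly6h was the rarest member. Counts were 38, 65 and 74 in MRL/lpr and 44, 30 and 38 in MRL/mpj, and the FPKM was at most 0.33. MRL/lpr replicate 1 lay within the MRL/mpj range. The log2 fold change was 0.85, with a 95% interval from -0.11 to 1.82 that includes both no difference and a large one (adjusted p = 0.213, edgeR). Of 12 neuronal markers 0 were higher, 10 did not pass and 2 were lower, the synaptic genes Snap25 (-1.35) and Syt1 (-1.30), with sums of 38.7 to 45.0 CPM in MRL/lpr and 64.1 to 70.5 in MRL/mpj. The part of neurons in the Ly6h level was not tested.

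**Figure D3:**
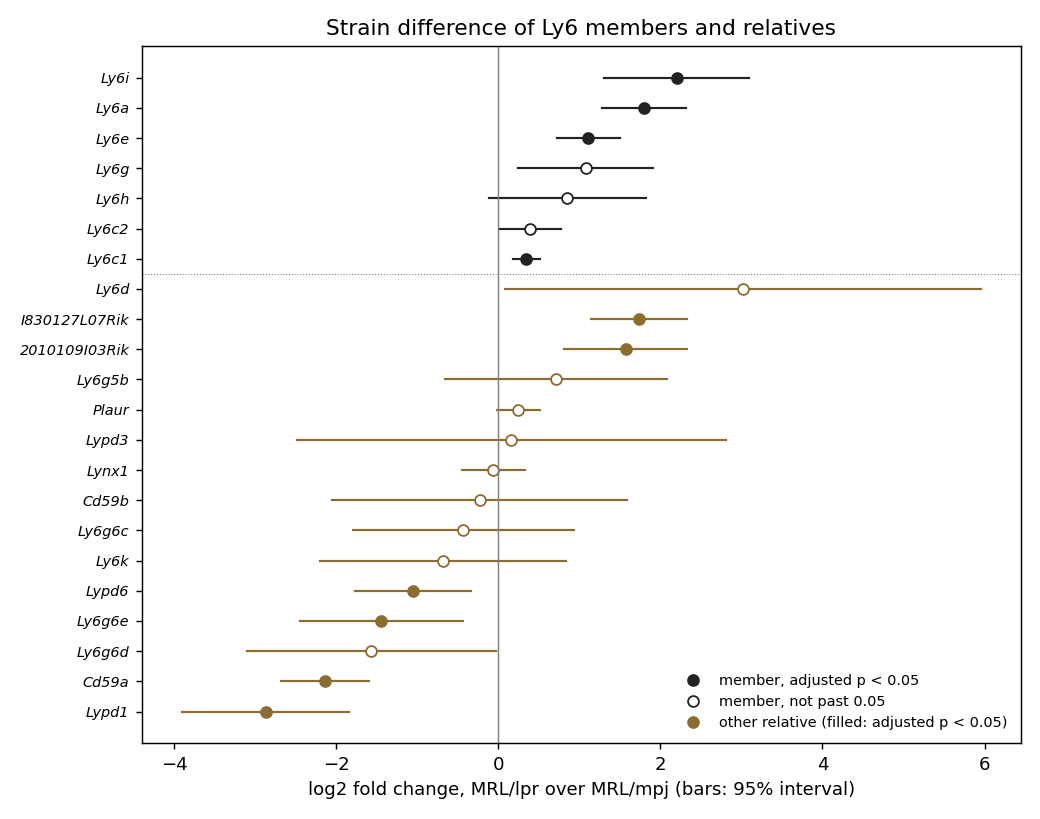
Log2 fold change of MRL/lpr over MRL/mpj from edgeR (points) with its 95% interval (bars) for the 7 members above the dotted line and 15 relatives below it, filled where the adjusted p was under 0.05. Filled members lie between 0.34 and 2.20, and filled relatives between -2.87 and 1.74.

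Ly6 genes belong to a wider superfamily named after Ly6 and the urokinase receptor uPAR. Of 34 other such genes listed, 33 were matched, by symbol or, for Ly6m, through its RefSeq entry, and 14 had enough counts to be tested. Of these, 1 was higher, 4 were lower and 9 did not pass, with a median log2 fold change of -0.33, beside 11.1% of all genes higher and 9.06% lower. The number lower was 2 when dispersions were not robust, and also without MRL/lpr replicate 2, MRL/mpj replicate 1 or MRL/mpj replicate 2. The number higher was 2 with limma and without MRL/mpj replicate 1. A further 10 had at most 3 counts in each library, among them Ly6f and Ly6l, which lie between members.

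The relative that was higher is listed as 2010109I03Rik and is named Ly6m in RefSeq. It had 168, 146 and 147 counts in MRL/lpr and 78, 33 and 65 in MRL/mpj, with a log2 fold change of 1.57 (SE 0.34, adjusted p = 0.00975, edgeR). Cd59a, which protects cells from the membrane attack complex of complement, was lower, with 188, 100 and 138 counts against 658, 808 and 657. Its log2 fold change was -2.14 (SE 0.24, adjusted p = 0.000232, edgeR). Lypd1, a neuronal relative that acts on nicotinic receptors, was lower by more, with 29, 8 and 19 counts against 173, 165 and 127 (log2 fold change -2.87, SE 0.46, adjusted p = 0.00186, edgeR). For these 3 genes the libraries of the strains did not overlap, which was also so for 39.0% of all genes in either direction. Lypd6 (-1.05) and Ly6g6e (-1.44) were also lower, each close to the threshold with adjusted p-values of 0.0445 and 0.049 by edgeR. The 2 best-covered relatives did not pass. Plaur, the urokinase receptor itself, had a log2 fold change of 0.25 (95% interval -0.01 to 0.51) and Lynx1, a modulator of nicotinic receptors, one of -0.06 (-0.45 to 0.33).

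Along the locus, 23 other genes lie between the first and the last member, of which 17 are annotated as pseudogenes and 3 as protein-coding. Of the 23, 16 had 0 counts in all libraries and 2 could be tested. None of the 3 protein-coding genes could be tested: Ly6f and Ly6l had 0 counts throughout, and BC025446 had 4 counts in MRL/lpr replicate 3 and 0 elsewhere. I830127L07Rik, a transcribed pseudogene in GENCODE that RefSeq names Ly6a2, was singled out after its values were seen. It lies between Ly6c2 and Ly6g (chr15:75131377-75135128, minus strand), with 217, 325 and 266 counts in MRL/lpr and 70, 92 and 112 in MRL/mpj. Its log2 fold change was 1.74 (SE 0.26, adjusted p = 0.0014, edgeR), close to that of Ly6a, and like Ly6a it was highest in MRL/lpr replicate 2. Of its stretches of 50 bases, 9.58% occurred in another gene, with 2.49% in Ly6a and 2.24% in Ly6i. Of its stretches of 150 bases, 0 occurred in another gene. The other tested gene, the pseudogene Gm8000, had at most 17 counts in any library and did not pass (adjusted p = 0.697, edgeR). Fold changes did not run evenly along the chromosome. The 3 members at the Ly6e end had log2 fold changes from 1.11 to 2.20, the neighbouring Ly6c1 and Ly6c2 had 0.34 and 0.39, and I830127L07Rik and Ly6g after them had 1.74 and 1.08.

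**Figure D4:**
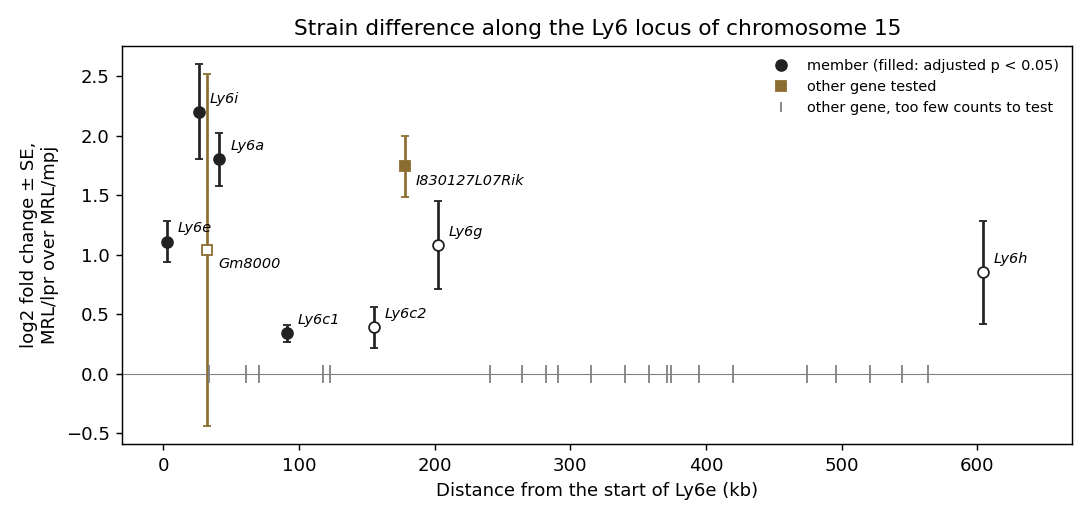
Log2 fold change of MRL/lpr over MRL/mpj with its SE, plotted against the distance of each gene's middle from the start of Ly6e in kilobases. Circles are members, squares the 2 other genes with enough counts, filled where the adjusted p was under 0.05, and ticks at 0 mark the places of genes too low to test. Ly6c1 and Ly6c2, at 0.34 and 0.39, lie between the higher values of Ly6a (1.80) and I830127L07Rik (1.74).

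The genes whose levels followed a member most closely across the 6 libraries were found by Pearson's r of log2 CPM. For Ly6a these were Brip1, a helicase of DNA repair (r = 0.9977), Glipr2 (0.9974) and the small nuclear RNA Gm25047 (0.9944), each of them highest in MRL/lpr replicate 2. For Ly6e they were Gm9949 (0.997), H2-DMb2, a chain of the MHC class II peptide exchange factor (0.9962), and the small GTPase Rhoc (0.9956). For Ly6i they were Oasl2, an interferon-induced member of the oligoadenylate synthetase family (0.9959), Ipcef1 (0.9955) and the transporter gene Abcg3 (0.9954). Between 1282 and 1503 genes had an r above 0.9 with each of these members. With 6 libraries in 2 strains, these values describe likeness in these libraries only.

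**Figure D5:**
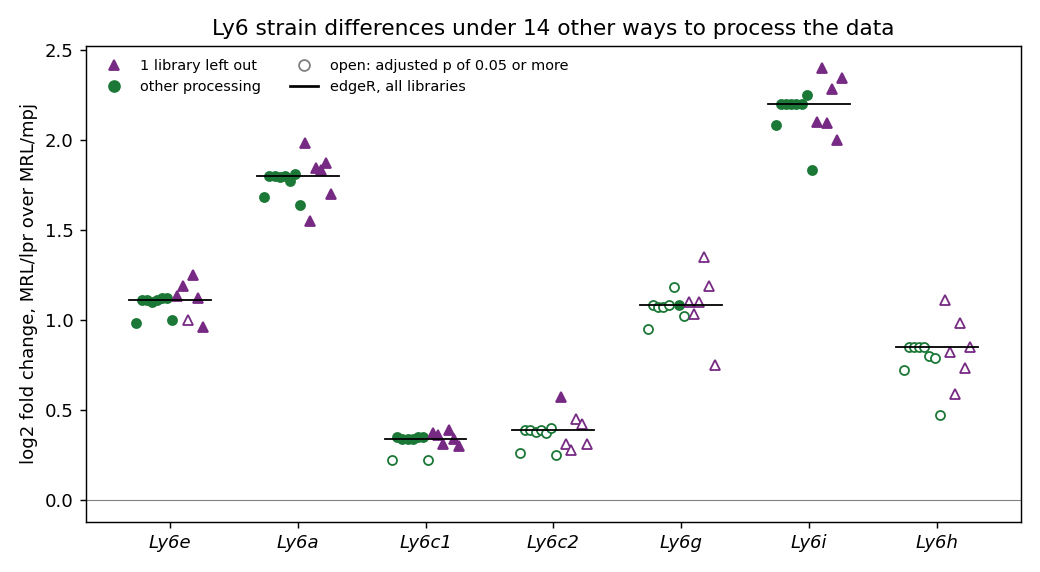
Log2 fold change of each Ly6 gene under 14 other ways of processing the data: triangles leave out 1 library, circles change the normalization, filter, model or unit, open symbols have an adjusted p of 0.05 or more, and the black line is the value from edgeR on all libraries. Each value is above 0. Ly6a (1.55 to 1.98) and Ly6i (1.83 to 2.40) are filled throughout, and Ly6h (0.47 to 1.11) is open throughout.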

How the data were processed

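Paired reads of 150 bases were obtained from CD11b+ brain cells, 3 samples per strain. Per the labels the libraries were made from rRNA-depleted total RNA, while the study's methods name purified mRNA. The authors trimmed reads with Cutadapt and aligned them with HISAT2 (versions 1.9.3 and 2.0.4 and the build GRCm38 per the submitters' processing notes, which also name Cuffdiff 2.2.1 and Cufflinks). The authors deposited raw whole-number counts per gene and FPKM per library. The counting tool and the annotation are not given in the sources used here. An unstated treatment of reads with several matches could move counts between Ly6 relatives. The deposited tables name genes by Ensembl identifier, and GENCODE M21 matched 55141 of 55401.

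The deposited counts were tested between strains, with no covariate, in edgeR 4.0.16 (R 4.3.3): filterByExpr (minimum count 10, minimum total 15), TMM factors (0.92 to 1.05), robust quasi-likelihood test and Benjamini-Hochberg adjustment over 19554 genes, with a common biological coefficient of variation of 0.26. A gene passed at an adjusted p under 0.05. Alternatives were DESeq2 1.42.0, limma 3.58.1 on log2(FPKM + 0.1) (the deposited FPKM, genes with a mean of at least 0.1), other scalings and filters, counts divided by 4 (where 1 read pair may be worth 4 counts), a replicate block and leaving out each library. No replicate pair agreed within sampling noise. Total counts of 45481609 to 49846634 per library leave the precision of low genes limited by their own counts, and intervals are edgeR's on the fitted log2 fold change. Coding sequences were aligned with MAFFT 7.526.

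Members and gene lists were chosen with earlier results of these data known. Besides members, the genes named were chosen from those with the largest and smallest log2 fold changes among the passing genes of a list, up to 4 per list. For each member past a log2 fold change of 1, the 3 genes most like it were also named. P2ry12, Tmem119, Csf1r, Cx3cr1, Ccr2, Fn1, Csf3r, Cldn5, Xbp1, Ly6g6e, Plaur, Lynx1 and I830127L07Rik were named after their values were seen. One marker gene is not reported here and was left out of its list. No library columns were left without a sample.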

Additional observations from a re-analysis of the deposited data

How the results depend on the processing

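Across 14 other ways of processing the data, Ly6a and Ly6i passed the test in each, and Ly6h in none. With library size as the only scaling, the median log2 fold change of all genes moved from -0.01 to -0.13, and with limma on log2(FPKM + 0.1) to -0.11. In these 2 settings Ly6c1 fell short of the threshold at 0.22 each (adjusted p = 0.0529 with edgeR and 0.0547 with limma), as did Ly6c1 and Ly6c2 summed at 0.22 and 0.23 (0.0548 and 0.0603). With library size only, 2790 genes were lower, against 1772. Ly6g passed with counts divided by 4, at 1.08 (adjusted p = 0.0497, edgeR). Other Ly6/uPAR genes counted as higher were 2 with limma, and as lower 2 with dispersions that were not robust. The cause of these shifts was not tested.

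With 1 library left out (which lowers the number of samples), log2 fold changes were 1.55 to 1.98 for Ly6a, 0.30 to 0.39 for Ly6c1, 0.28 to 0.57 for Ly6c2, 0.96 to 1.25 for Ly6e, 0.75 to 1.35 for Ly6g, 0.59 to 1.11 for Ly6h, 2.0 to 2.40 for Ly6i and 0.30 to 0.40 for the sum of Ly6c1 and Ly6c2. Ly6e lost the call without MRL/lpr replicate 3 (1.0), the sum lost it without MRL/mpj replicate 3 (0.30, adjusted p = 0.0548, edgeR), and Ly6c2 gained it without MRL/lpr replicate 1 (0.57). Members higher numbered 3 to 5 and members lower 0. Of all genes 1626 to 2363 were higher and 1177 to 1971 lower, the lowest count being without MRL/mpj replicate 1. Other Ly6/uPAR genes numbered 1 to 2 higher, with 2 without MRL/mpj replicate 1, and 2 to 3 lower, with 2 without MRL/lpr replicate 2, MRL/mpj replicate 1 or MRL/mpj replicate 2. The difference in the log2 ratio of Ly6c2 to Ly6c1 ran from -0.08 to 0.20. It changed sign without MRL/lpr replicate 2 (-0.08), MRL/lpr replicate 3 (-0.05) or MRL/mpj replicate 3 (-0.01). With 1 library left out, the two-sided exact permutation test cannot give a p below 0.2, so none of these values could pass it.

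Libraries with the same number did not deviate together (correlations of -0.0409, -0.0202 and -0.0325). With a replicate block, no member's call changed: Ly6a was 1.77, Ly6c1 0.35, Ly6e 1.12, Ly6i 2.20, Ly6c2 0.37, Ly6g 1.18 and Ly6h 0.80, while 1754 genes were higher and 1309 lower. The depth limits Ly6i, Ly6h and Ly6g most, whose lowest libraries would hold 4, 7 and 9 read pairs at 4 counts per pair.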
